A study of Sinotaia aeruginosa with 24 samples.

Results

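The gene clusters named for collagens and other proteins of the extracellular matrix were followed in the liver and brain of a freshwater snail labelled Sinotaia aeruginosa, called Bellamya aeruginosa in the series title. A cluster is a group of assembled transcripts counted as a single gene. Members were the clusters whose Swiss-Prot or NR description, read up to the species tag and without regard to case, held one of these terms: collagen alpha, hemicentin, cartilage matrix protein, matrilin, laminin subunit, fibrillin, fibulin, perlecan, nidogen, papilin, matrix metalloproteinase, metalloproteinase inhibitor, peroxidasin or SPARC. This gave 244 of the 233875 clusters in the table, of which 35991 had a name in either database. 48 members matched in both databases, 105 in Swiss-Prot alone and 91 in NR alone, and 28 of the last also carried a different Swiss-Prot name. No cluster was taken in for perlecan. A name is the best database match, so it gives a protein family and not a proven orthologue, and reads may be divided among closely similar copies. Collagens VI, XII, XIV, XX, XXI and XXII and the matrilins all carry von Willebrand factor A domains, and which stretch of a cluster made its match was not tested.

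Snails were fed algae daily, and RNA came on day 42 from tissue labelled liver or brain, with 3 samples in each of 8 groups. The control group had no handling per the labels, and the other groups received cadmium, polystyrene microplastic or both, each at the concentration the labels call medium, with no figure given. The algal feed was common to all groups. In a snail the organ named liver is the digestive gland. Whether a group's 3 samples are separate animals, pools or a shared extract is not labelled, and p-values therefore rest on the variation among these samples, which may be technical.

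The extracellular matrix is the protein scaffold between cells: fibrillar collagens form its ropes, other collagens decorate or link them, and laminins, collagen IV and nidogen build the sheet called the basement membrane, on which epithelia, muscle and nerve sheaths rest. Matrix metalloproteinases cut this scaffold, their inhibitors hold them back, and peroxidasin cross-links collagen IV. Hemicentins, first described in Caenorhabditis elegans, are very long proteins of immunoglobulin repeats that tie tissues to each other.

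By role, the members were 83 hemicentins, 39 basement membrane proteins (among them 19 laminin subunits, 9 peroxidasins, 3 of collagen XV and 2 of collagen IV), 29 collagens of the fibril-surface (FACIT) group, 24 matrilins and cartilage matrix proteins, 22 fibrillins, 16 proteases, inhibitors and SPARC proteins, 11 fibulins, 9 of collagens VI and XXVIII, 6 fibrillar collagens and 5 other collagens. Their median length of 1437.5 bases was close to the 1458 of all named clusters, and the hemicentins and fibrillins were shorter, with medians of 983 and 646 bases. A domain of the epidermal growth factor kind, which the rule did not use, was annotated in 37 of 244 members (15.2%) against 313 of 35991 named clusters (0.87%), mostly in fibulins (10 of 11) and fibrillins (14 of 22). Of 83 hemicentins 8 carried it and 2 an immunoglobulin domain, which 22 named clusters had. A laminin domain was annotated in 3 of 39 basement membrane members and 61 named clusters. The collagen triple helix and von Willebrand factor type A were found in 0 named clusters, so that search tells nothing about the members. After the filter on low counts 151 members could be tested in liver, 181 in brain and 206 across both.

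Each sample held between 13712265 and 17145998 expected counts. Levels are CPM, counts relative to the total of the sample, after scaling within a tissue, or over all 24 samples where tissues are compared, and ± is the SD over 3 samples after a mean and the standard error after a log2 fold change. The tissue labels held against markers: of 39 tested neuron clusters 27 were higher and 4 lower in control brain than in control liver, and of 88 digestive gland clusters 14 were higher and 60 lower. Among all tested clusters 23.5% were higher and 26.2% lower in control brain. Amylase, a digestive gland name, was high in both tissues, at 5680 to 7327 CPM in control liver and 1184 to 3765 in control brain. Not all neuron names followed the tissue: neuroendocrine convertase summed to 777 to 951 CPM in control liver and 249 to 328 in control brain, and synaptosomal-associated protein 25 to 39.1 to 48.6 CPM in control liver and 34.2 to 57.1 in control brain, while the vesicular acetylcholine transporter had no count in control liver. Muscle clusters were also mostly higher in brain (35 of 53), with 17476, 12297 and 26172 CPM in sum on the scale of the brain samples, so muscle transcripts were present in the brain samples. Brain control 5 stood apart from controls 4 and 6: its members summed to 7746 CPM, where the other 2 held 13603 and 14048 CPM, and its fibrillar collagens to 855 against 2152 and 2363 CPM. The exposed brain groups were uneven too. Members summed to 11970, 17217 and 10726 CPM with cadmium, 10208, 14955 and 11386 with polystyrene and 14984, 9827 and 15157 with both.

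Control livers were dominated by a few clusters matched to collagen VI, collagen XII and cartilage matrix protein that were close to absent from brain, while control brains held more fibrillar collagen, laminin, peroxidasin and hemicentin. Of 206 tested members 92 were higher in brain and 49 higher in liver, and 49.7% of all tested clusters differed (23.5% higher and 26.2% lower in brain). The median member was 1.11 log2 units higher in brain, or 1.04 with clusters without counts in one tissue set at their bound, against 0.00 for all clusters. In bulk tissue, fewer cells of a type and less RNA per cell cannot be told apart.

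In liver, Collagen alpha-6(VI) (Cluster-2499.87360), a chain of the beaded filaments near basement membranes, held 7498, 8418 and 10048 CPM in the control samples against 0.0526, 0 and 0.256 CPM in control brains (log2 fold change -16.22 ± 0.56, edgeR adjusted p = 1.40e-16). Cartilage matrix protein (Cluster-2499.88568), an adaptor between collagen fibrils and other matrix proteins, held 3618, 3438 and 4355 CPM in liver and 0.842, 0.552 and 0.973 CPM in brain (log2 fold change -12.21 ± 0.48, edgeR adjusted p = 1.54e-15). Collagen alpha-1(XII) (Cluster-2499.88645), which coats fibrils, held 2264, 2318 and 2978 CPM in liver and 0.158, 0.387 and 0.256 CPM in brain (log2 fold change -13.17 ± 0.48, edgeR adjusted p = 2.47e-16). No brain sample came near any liver sample for these clusters. The same held for Collagen alpha-1(XII) (Cluster-2499.88478), with 5272, 5169 and 6342 CPM in liver and 0, 0 and 0.154 CPM in brain, where a brain total of 1 to 3 counts gives a ratio of 105110.3 (counting interval 35966 to 509695) in favour of liver (edgeR adjusted p = 2.53e-13). A set of 3 further liver clusters had no count in any control brain, so that their folds are bounds: Matrilin-2 (Cluster-2499.87233) was at least 4590.1-fold higher in liver, Cartilage matrix protein (Cluster-2499.89998) at least 3364-fold and Collagen alpha-1(XXI) (Cluster-2499.84659) at least 1991-fold. The bounds take 3 counts as the floor of a whole group. Per kilobase of cluster length, the liver's control levels were 4491 CPM for the collagen VI cluster, 1115 for the cartilage matrix protein, 961 for the collagen XII cluster Cluster-2499.88645 and 1088 for Cluster-2499.88478.

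In brain, Hemicentin-1 (Cluster-2499.121754) was the leading cluster, with 1249, 1019.7 and 2067 CPM against 0.0875, 0.17 and 0.286 CPM in liver (log2 fold change 12.92 ± 1.06, edgeR adjusted p = 1.14e-08). Collagen alpha-1(VII) (Cluster-2499.114942), named for the anchoring fibrils of vertebrate skin, held 458, 228 and 325 CPM against 0.0875, 1.53 and 0.955 CPM (log2 fold change 8.60 ± 0.93, edgeR adjusted p = 1.31e-06). Laminin subunit alpha-1 (Cluster-2499.102791), an organiser of basement membranes, held 32.8, 19.2 and 25.8 CPM in brain and 1.93, 1.53 and 1.53 CPM in liver (log2 fold change 3.96 ± 0.30, edgeR adjusted p = 1.00e-10). None of these overlapped between the tissues. The fibrillar Collagen alpha-1(XI) (Cluster-2499.71675) held 106, 102 and 97.7 CPM in brain and 4.9, 3.66 and 4.3 CPM in liver (log2 fold change 4.57 ± 0.27, edgeR adjusted p = 9.28e-13). Peroxidasin (Cluster-2499.93408) held 93.6, 89.3 and 95 against 16.5, 16.2 and 16.9 CPM (log2 fold change 2.48 ± 0.16, edgeR adjusted p = 3.13e-12). A cluster named Collagen alpha-1(XXI) (Cluster-2499.125925) had no count in control liver and was at least 7606-fold higher in brain, whereas Cluster-2499.84659 of the same name had counts in control liver and none in control brain. Per kilobase the brain's control levels were 759.7 CPM for the hemicentin, 585 for Matrilin-3 (Cluster-2499.101441), 489.9 for collagen VII and 486 for collagen XXI.

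By role, the counts in brain relative to liver were 5 higher and 0 lower of 6 fibrillar collagens (median log2 fold change 3.59), 22 higher and 3 lower of 31 basement membrane members (median 1.88), 25 higher and 15 lower of 66 hemicentins, 10 higher and 8 lower of 21 matrilins and cartilage matrix proteins, 6 higher and 1 lower of 17 fibrillins and 9 higher and 4 lower of 16 proteases, inhibitors and SPARC proteins. The fibril-surface collagens were the role with more clusters higher in liver, 6 higher and 14 lower of 27 (median -1.14). Among them collagen XII had 1 higher and 9 lower of 13. Without brain control 5 the count over all members was 92 higher and 40 lower.

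**Figure D1:**
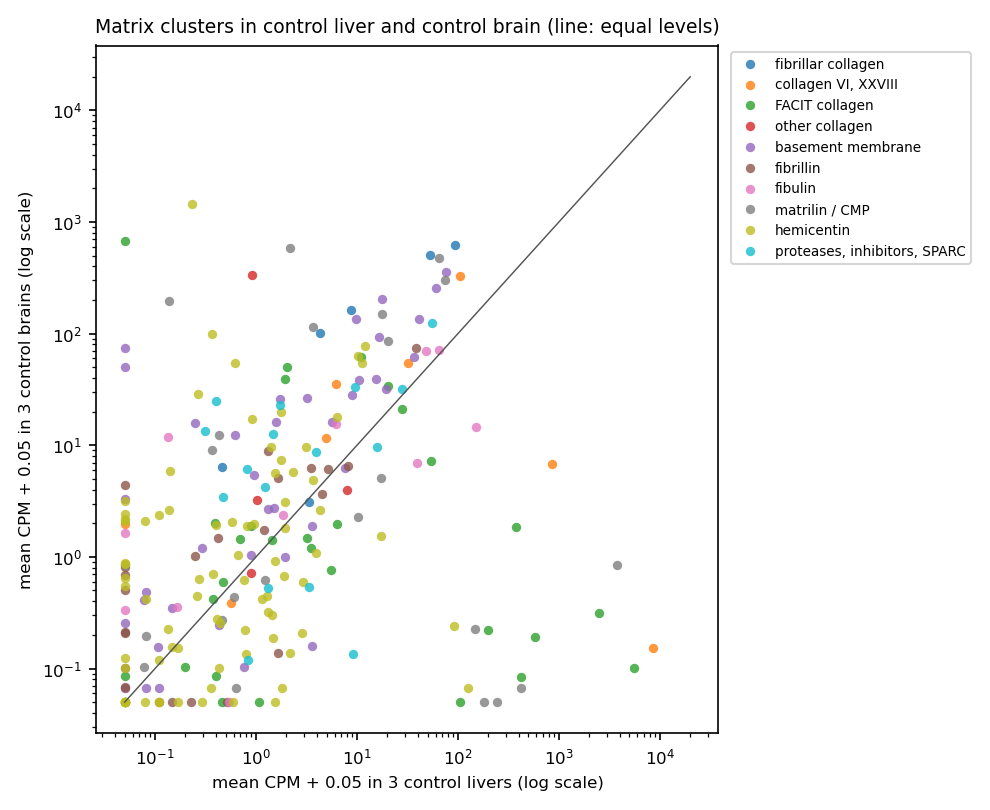
Mean CPM of each member, tested or not, in the 3 control livers (x axis) and the 3 control brains (y axis), both on log axes after adding 0.05, coloured by role, with a line where both are equal. The collagen VI, collagen XII and cartilage matrix protein clusters lie at the lower right, near 0 in brain, and the brain's hemicentin, collagen VII and collagen XXI clusters at the upper left.

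Exposed livers were compared with the 3 control livers to see what each pollutant and their combination did to matrix expression. In all exposures the called members were mostly higher. Clusters of collagens VI and XXI and of fibrillin were among the higher calls in every exposure. Collagen II was among them with cadmium and with polystyrene, and collagen XII and a cartilage matrix protein with polystyrene and with both. No matrix metalloproteinase cluster was called in every exposure. Cluster-2499.78195 was called with cadmium and with polystyrene, and Cluster-2499.39933 with polystyrene and with both. Each of these families had 1 to 3 called clusters in an exposure, and whether the exposures differ was tested only where stated. Of 151 tested members 12 were higher and 2 lower with cadmium, 14 higher and 0 lower with polystyrene, and 13 higher and 3 lower with both. That is 9.27%, 9.27% and 10.6% of the members, where 3.46%, 3.14% and 6.24% of all tested clusters were called. By direction these were 1.66%, 1.58% and 2.86% higher and 1.8%, 1.56% and 3.39% lower. The median member was at 0.04, 0.12 and 0.12 on the log2 scale against 0.00, 0.00 and 0.00 for all clusters. The 3 comparisons share their control samples. Where a call was lost when a single library was left out, or under another way of processing, the adjusted p it then had is given beside it, and a call with no such value was kept in each that could test it. With 3 samples a group a permutation of one cluster's values cannot go below p = 0.1, so the calls rest on edgeR's quasi-likelihood test across all clusters. Single libraries moved the counts: with cadmium they were 6 higher and 0 lower without cadmium 1, 7 higher and 0 lower without cadmium 2, 7 higher and 1 lower without control 1, 4 higher and 0 lower without control 2 and 7 higher and 1 lower without control 3. With polystyrene the number higher was 6 without control 2, 9 without control 3, 8 without polystyrene 2, 8 without polystyrene 3, with none lower. With both the counts were 7 higher and 0 lower without control 2, 8 higher and 2 lower without control 3 and 7 higher and 0 lower without combined 3.

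**Figure D2:**
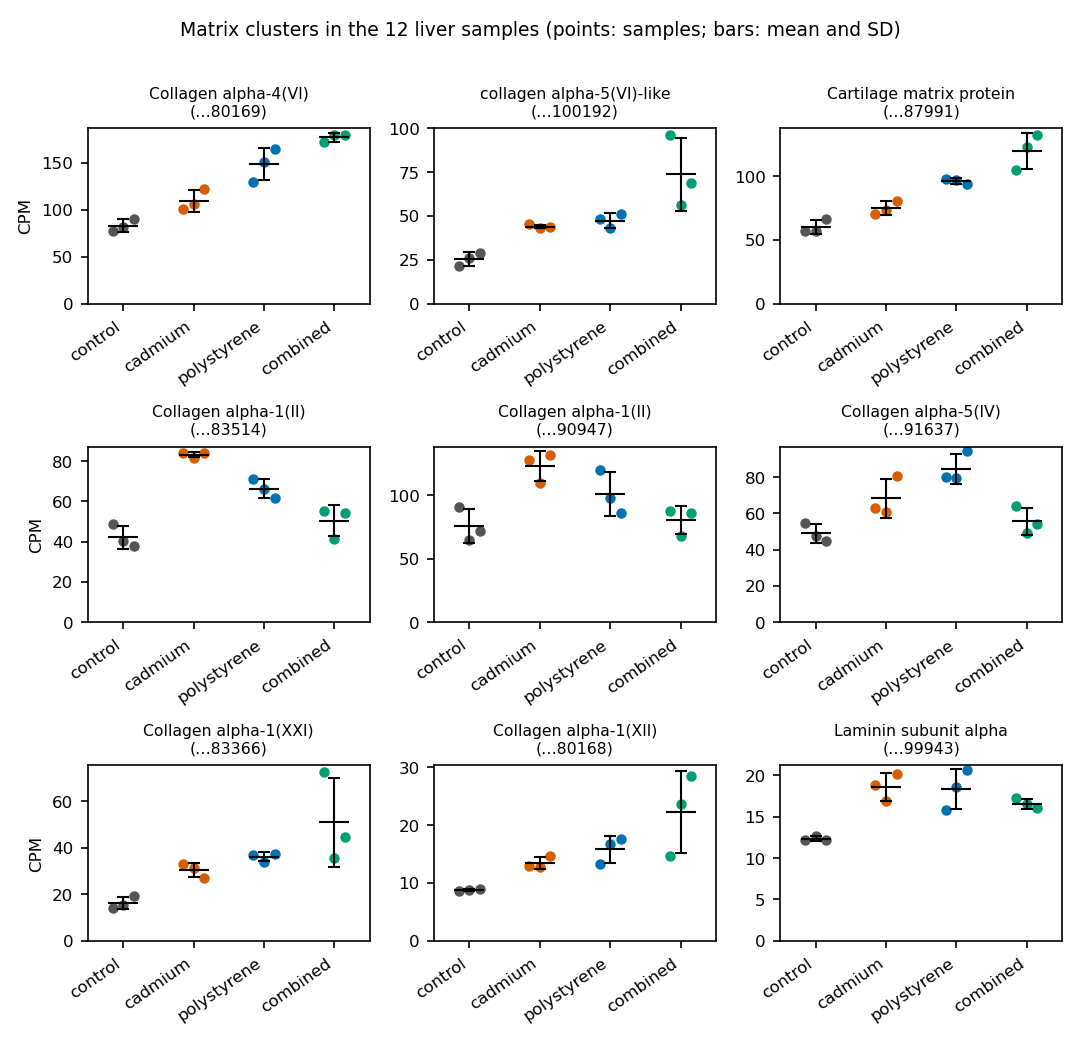
CPM of 9 matrix clusters in the 12 liver samples, as points for each sample with the mean and SD (n = 3) of each group. Collagen alpha-4(VI) (Cluster-2499.80169) rises from 83.1 ± 6.93 CPM in controls to 177 ± 4.53 CPM with both pollutants, while Collagen alpha-1(II) (Cluster-2499.83514) is highest with cadmium, at 83.3 ± 1.45 CPM.

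Collagen alpha-4(VI) (Cluster-2499.80169), of the beaded filaments that anchor cells to the surrounding matrix, held 77, 81.8 and 90.7 CPM in control livers and 100.4, 106 and 122 CPM with cadmium. Polystyrene samples held 130.1, 151 and 164 CPM and samples with both 172, 179.9 and 179.7 CPM. The groups lay in that order without overlap. It was higher than in the controls with polystyrene (log2 fold change 0.84 ± 0.11, edgeR adjusted p = 0.00204) and with both (log2 fold change 1.09 ± 0.11, edgeR adjusted p = 0.000314), and with cadmium alone the difference did not pass the test (log2 fold change 0.40 ± 0.11, edgeR adjusted p = 0.0702). A shorter cluster named collagen alpha-5(VI) chain-like (Cluster-2499.100192) held 21.2, 26.1 and 28.8 CPM in control livers and 45.2, 43.3 and 43.5 CPM with cadmium. Polystyrene samples held 48.1, 43 and 51 CPM and samples with both 96.3, 56 and 68.7 CPM. All exposed samples lay above all controls, and the combined samples above all others. Its log2 fold changes were 0.79 with cadmium (edgeR adjusted p = 0.0213, lost at an adjusted p of up to 0.0806 in 4 of 12 single omissions), 0.90 with polystyrene (adjusted p = 0.012, lost at an adjusted p of up to 0.0535 without control 2 or polystyrene 3) and 1.54 with both (adjusted p = 0.000441). A further cluster of this type, Collagen alpha-4(VI) (Cluster-2499.92164), rose with both from 4.93 ± 1.11 to 9.93 ± 3.14 CPM (edgeR adjusted p = 0.0305, lost at an adjusted p of up to 0.121 in 5 of 12 single omissions and of 0.0758 with only the compared groups fitted).

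Of the fibril-surface collagens, which bridge fibrils to neighbouring molecules, Collagen alpha-1(XXI) (Cluster-2499.83366) held 14.2, 15.5 and 19.1 CPM in control livers and 33.1, 31.3 and 27 CPM with cadmium. Polystyrene samples held 37, 34 and 37.3 CPM and samples with both 72.4, 35.6 and 44.7 CPM. Every exposed sample was above every control. The log2 fold change was 0.90 ± 0.21, edgeR adjusted p = 0.0357 with cadmium (lost at an adjusted p of up to 0.144 in 5 of 12 single omissions), 1.15 ± 0.21, edgeR adjusted p = 0.0124 with polystyrene (lost at an adjusted p of up to 0.0668 without control 2 or polystyrene 3) and 1.64 ± 0.21, edgeR adjusted p = 0.00158 with both. Collagen alpha-1(XII) (Cluster-2499.80168) held 8.62, 8.74 and 9 CPM in control livers and 13, 12.8 and 14.6 CPM with cadmium. Polystyrene samples held 13.2, 16.7 and 17.6 CPM and samples with both 14.6, 23.6 and 28.5 CPM. It rose with both (log2 fold change 1.34 ± 0.20, edgeR adjusted p = 0.00288) and with polystyrene (log2 fold change 0.85 ± 0.20, edgeR adjusted p = 0.0362, lost at an adjusted p of up to 0.132 in 6 of 12 single omissions), and did not pass with cadmium (log2 fold change 0.62 ± 0.20, edgeR adjusted p = 0.116). Another cluster of that name (Cluster-2499.54575) fell with cadmium from 4.42 ± 1.94 to 1.07 ± 0.249 CPM (log2 fold change -2.04 ± 0.44, edgeR adjusted p = 0.0218, lost at an adjusted p of up to 0.1 in 4 of 12 single omissions). Collagen alpha-1(XX) (Cluster-2499.88285) held 210.2, 633 and 73.6 CPM in control livers and 1.7, 0.964 and 0 CPM with cadmium. Polystyrene samples held 0.658, 121 and 78.3 CPM and samples with both 0.0647, 0 and 0.202 CPM. All cadmium and combined samples were far below all controls, and polystyrene 1 was below them too, while polystyrene 2 and 3 lay within the control range. It fell with both (log2 fold change -11.59 ± 2.37, edgeR adjusted p = 0.0291, lost at an adjusted p of up to 0.098 in 4 of 12 single omissions and of 0.0548 with the replicate block), with cadmium its edgeR adjusted p was 0.0523 and with polystyrene 0.466.

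Of the 5 tested fibrillar collagens 3 were called higher with cadmium and 1 with polystyrene. Their median log2 fold change was 0.84 with cadmium, 0.41 with polystyrene and 0.09 with both. Their summed level was 154, 118 and 122 CPM in controls, 237, 208 and 236 CPM with cadmium, 209, 178 and 161 CPM with polystyrene and 157, 118 and 153 CPM with both. The cadmium and the polystyrene sums lay above every control, and the combined sums overlapped the controls. Collagen alpha-1(II) (Cluster-2499.83514), whose chains form thick fibrils, held 48.8, 40.2 and 37.8 CPM in control livers and 84.3, 81.7 and 84.1 CPM with cadmium. Polystyrene samples held 71.3, 66 and 61.7 CPM and samples with both 55.1, 41.4 and 54.4 CPM. The cadmium samples lay above all others and the controls below all but the combined samples, which overlapped them. It rose with cadmium (log2 fold change 0.98 ± 0.13, edgeR adjusted p = 0.00165) and with polystyrene (log2 fold change 0.65 ± 0.13, edgeR adjusted p = 0.0153, lost at an adjusted p of up to 0.0823 in 4 of 12 single omissions), and in the combined exposure the difference did not pass (log2 fold change 0.25 ± 0.13, edgeR adjusted p = 0.271). A second Collagen alpha-1(II) cluster (Cluster-2499.90947) held 75.6 ± 13.4 CPM in controls and 123 ± 11.6 CPM with cadmium (log2 fold change 0.70 ± 0.15, edgeR adjusted p = 0.0237, lost at an adjusted p of up to 0.123 in 4 of 12 single omissions). Collagen alpha-1(V) (Cluster-2499.66020), which sets fibril width in vertebrates, rose from 6.9 ± 0.275 to 12.4 ± 2.98 CPM with cadmium (log2 fold change 0.84 ± 0.21, edgeR adjusted p = 0.0387, lost at an adjusted p of up to 0.154 in 7 of 12 single omissions and of 0.0561 with only the compared groups fitted).

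In the basement membrane, Collagen alpha-5(IV) (Cluster-2499.91637), the network-forming collagen of that sheet, held 54.9, 47.4 and 44.9 CPM in control livers and 63.1, 61 and 80.6 CPM with cadmium. Polystyrene samples held 79.8, 79.6 and 94.2 CPM and samples with both 63.9, 49.3 and 54 CPM. The cadmium and polystyrene samples exceeded every control, and the combined samples overlapped the controls. It rose with polystyrene (log2 fold change 0.79 ± 0.14, edgeR adjusted p = 0.00825), while with cadmium (edgeR adjusted p = 0.0753) and with both (0.475) it did not pass. Laminin subunit alpha (Cluster-2499.99943) held 12.2, 12.7 and 12.2 CPM in control livers and 18.8, 16.8 and 20.2 CPM with cadmium. Polystyrene samples held 15.8, 18.6 and 20.6 CPM and samples with both 17.2, 16.6 and 16 CPM. No exposed sample was as low as a control. The edgeR adjusted p was 0.0259 with cadmium (lost at an adjusted p of up to 0.0877 in 5 of 12 single omissions), 0.0311 with polystyrene (lost at an adjusted p of up to 0.137 in 6 of 12 single omissions and of 0.0512 with the replicate block) and 0.0714 with both. Laminin subunit beta-1 (Cluster-2499.80499) rose with cadmium from 29.5 ± 1.86 to 42.1 ± 4.33 CPM (log2 fold change 0.51 ± 0.12, edgeR adjusted p = 0.0269, lost at an adjusted p of up to 0.124 in 3 of 12 single omissions and of 0.0539 with only the compared groups fitted). With each single pollutant the other 22 of 24 tested basement membrane members did not pass, among them Nidogen (Cluster-2499.92076, which links laminin to collagen IV, adjusted p at least 0.285) and Collagen alpha-1(XV) (Cluster-2499.93281, at least 0.611).

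Cartilage matrix protein (Cluster-2499.87991), a matrilin-type adaptor, held 57.4, 57 and 66.2 CPM in control livers and 70.2, 73.7 and 81 CPM with cadmium. Polystyrene samples held 97.8, 97.1 and 94 CPM and samples with both 105, 123 and 132 CPM. Every exposed sample lay above every control. It was higher with polystyrene (log2 fold change 0.68 ± 0.11, edgeR adjusted p = 0.00523) and with both (log2 fold change 0.99 ± 0.11, edgeR adjusted p = 0.000441), and with cadmium it did not pass (log2 fold change 0.32 ± 0.11, edgeR adjusted p = 0.137). The other 15 tested matrilins passed in no exposure against control. They include the abundant Cartilage matrix protein (Cluster-2499.88568), at 3043 ± 355 CPM in controls and 3999 ± 274 CPM with both (edgeR adjusted p = 0.121). Nor did the most abundant collagens pass in any exposure: Collagen alpha-6(VI) (Cluster-2499.87360) held 6928 ± 1006 CPM in controls and 8695 ± 567 CPM with both (adjusted p = 0.243), and Collagen alpha-1(XII) (Cluster-2499.88478) 4476 ± 476 and 5766 ± 400.2 CPM (adjusted p = 0.109). The summed CPM of all members was 19061, 20321 and 22979 in controls, 17935, 18787 and 22606 with cadmium, 19043, 22053 and 23213 with polystyrene and 25108, 23551 and 26074 with both, where the combined samples lay above all controls.

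A pair of fibrillin clusters, named for the core protein of microfibrils, had counts in every exposed liver and none in the controls. Fibrillin-3 (Cluster-2499.139545) held 0, 0 and 0 CPM in control livers and 4.42, 2.51 and 5.07 CPM with cadmium. Polystyrene samples held 3.49, 5.91 and 1.48 CPM and samples with both 0.129, 0.723 and 1.41 CPM. The cluster named fibrillin-3-like (Cluster-2499.133286) held 0, 0 and 0 CPM in control livers and 6.67, 6.82 and 5.99 CPM with cadmium. Polystyrene samples held 7.7, 8 and 2.97 CPM and samples with both 0.388, 2.89 and 3.97 CPM. With no count in the controls, the folds are bounds. The first was at least 55.4-fold higher with cadmium (edgeR adjusted p = 0.00754), 50.1-fold with polystyrene (0.00826) and 10.5-fold with both (0.0389, lost at an adjusted p of up to 0.117 in 7 of 12 single omissions and of 0.0885 with the replicate block). The second was at least 91.1-fold higher with cadmium (edgeR adjusted p = 0.00983), 85.5-fold with polystyrene (0.0102) and 33.3-fold with both (0.0192, lost at an adjusted p of up to 0.0677 in 3 of 12 single omissions and of 0.0535 with the replicate block). They are 692 and 998 bases long, and whether they are pieces of one transcript was not tested. The longer Fibrillin-2 (Cluster-2499.83867) rose with polystyrene from 30.6 ± 6.97 to 47.3 ± 2.62 CPM (edgeR adjusted p = 0.0482, lost at an adjusted p of up to 0.194 in 9 of 12 single omissions, of 0.0513 with DESeq2 size factors, of 0.0659 with the replicate block and of 0.0556 with the stricter filter). Fibulin-1 (Cluster-2499.91547), which binds basement membrane proteins, held 33.8, 40.2 and 40.7 CPM in control livers and 47.4, 53.6 and 49 CPM with cadmium. Polystyrene samples held 55.9, 59.1 and 66.8 CPM and samples with both 49, 50.8 and 42.7 CPM. Every exposed sample was above every control. It rose with polystyrene (log2 fold change 0.66 ± 0.12, edgeR adjusted p = 0.00837), and with cadmium (adjusted p = 0.0884) and with both (0.131) it did not pass. The other 5 tested fibulins passed in no exposure.

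Of the remodelling enzymes, Matrix metalloproteinase-19 (Cluster-2499.78195), a secreted protease of matrix and basement membrane proteins in vertebrates, held 10.7, 11.4 and 16 CPM in control livers and 18.6, 23 and 30.2 CPM with cadmium. Polystyrene samples held 26.3, 28.1 and 24.7 CPM and samples with both 15.3, 16.6 and 21.6 CPM. It rose with cadmium (log2 fold change 0.91 ± 0.20, edgeR adjusted p = 0.0217, lost at an adjusted p of up to 0.106 in 4 of 12 single omissions) and with polystyrene (log2 fold change 1.05 ± 0.20, edgeR adjusted p = 0.0113, lost at an adjusted p of up to 0.0654 without control 2 or polystyrene 2), and with both it did not pass (log2 fold change 0.49 ± 0.20, edgeR adjusted p = 0.156). Matrix metalloproteinase-18 (Cluster-2499.39933), a collagenase in Xenopus, was scarce, with 1.53, 0.624 and 0.908 CPM in control livers and 1.97, 1.54 and 2 CPM with cadmium. Polystyrene samples held 3.22, 2.46 and 2.34 CPM and samples with both 2.52, 3.33 and 2.76 CPM. Its edgeR adjusted p was 0.0487 with polystyrene (lost at an adjusted p of up to 0.193 in 10 of 12 single omissions, of 0.0503 with DESeq2 size factors, of 0.0782 with only the compared groups fitted and of 0.066 with the replicate block) and 0.0262 with both (lost at an adjusted p of up to 0.113 in 4 of 12 single omissions and of 0.0725 with only the compared groups fitted). None of the metalloproteinase inhibitors and SPARC proteins passed against the controls, the highest being metalloproteinase inhibitor 2 (Cluster-2499.86607), with 45.9, 48.1 and 39.7 CPM in control livers and 34.8, 36.5 and 54.9 CPM with cadmium. Polystyrene samples held 61.6, 59.8 and 61.6 CPM and samples with both 127, 57.4 and 62.7 CPM. Its adjusted p was at least 0.0817.

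The 83 hemicentin clusters summed to 216 to 303 CPM in control livers. Of 43 tested, 2 were higher and 1 lower with cadmium and 3 and 2 with both, and none was called with polystyrene. The cadmium and combined shares of 6.98% and 11.6% stood beside 3.46% and 6.24% of all tested clusters. With polystyrene 3.14% of all tested clusters were called. Hemicentin-1 (Cluster-2499.108007) held 1.39, 0.555 and 0.227 CPM in control livers and 0.408, 0.321 and 0.571 CPM with cadmium. Polystyrene samples held 1.91, 1.48 and 1.37 CPM and samples with both 12.6, 4.48 and 7.53 CPM. All 3 samples were above every control in the combined livers (log2 fold change 3.48 ± 0.51, edgeR adjusted p = 0.00245). The cluster named hemicentin-2-like isoform X4 (Cluster-2499.122000) held 0.0695, 0.416 and 0.303 CPM in control livers and 5.38, 8.29 and 1.71 CPM with cadmium. Polystyrene samples held 0.724, 1.35 and 2.17 CPM and samples with both 0, 0 and 0 CPM. The cadmium and polystyrene samples lay above the controls, and the combined livers had no count. It rose with cadmium (log2 fold change 4.25 ± 0.72, edgeR adjusted p = 0.0105) and did not pass with polystyrene (adjusted p = 0.111). Hemicentin-1 (Cluster-2499.75213) fell with cadmium from 2.9 ± 1.11 to 0.744 ± 0.194 CPM (log2 fold change -1.95 ± 0.44, edgeR adjusted p = 0.0267, lost at an adjusted p of up to 0.143 in 5 of 12 single omissions) and with both to 0.782 ± 0.302 CPM (log2 fold change -1.87 ± 0.44, edgeR adjusted p = 0.0235, lost at an adjusted p of up to 0.119 in 3 of 12 single omissions and of 0.0507 with only the compared groups fitted).

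A second list of 184 clusters was matched by name to proteins that bind, trim or modify the matrix (integrins, tolloids, ADAMTS proteases, tenascins, prolyl hydroxylases and others). It includes any name with fibronectin, also of proteins that only carry its domain. The match of names also took in proteins outside that aim, among them Bone morphogenetic protein 10, Neuropilin and tolloid-like protein 2 and Integrin beta-1-binding protein 1. Of 103 tested in liver 6 were higher and 3 lower with cadmium, 5 and 4 with polystyrene and 8 and 4 with both. These are 8.74%, 8.74% and 11.7% of the partners, where 3.46%, 3.14% and 6.24% of all tested clusters were called. Integrin beta-1 (Cluster-2499.96911), a receptor subunit for collagen and laminin, rose with both from 16.6 ± 3.06 to 37.7 ± 2.48 CPM (log2 fold change 1.18 ± 0.15, edgeR adjusted p = 0.00105). Integrin alpha-9 (Cluster-2499.92595), a partner of beta subunits, went in that exposure from 31 ± 2.55 to 58 ± 2.25 CPM (log2 fold change 0.90 ± 0.13, edgeR adjusted p = 0.00237). An ADAMTS protease (Cluster-2499.111432), of the family that trims procollagen and proteoglycans, rose with polystyrene from 0.681 ± 0.435 to 4.09 ± 0.366 CPM (log2 fold change 2.56 ± 0.39, edgeR adjusted p = 0.0038). With cadmium it went from 0.681 ± 0.435 to 2.97 ± 0.159 CPM (log2 fold change 2.10 ± 0.40, edgeR adjusted p = 0.0114). These receptors and proteases were higher in all 3 samples of the exposed groups named than in every control. Tenascin-R (Cluster-2499.115636), an anti-adhesive matrix glycoprotein, fell with polystyrene from 6.15 ± 3.82 to 0.0571 ± 0.0989 CPM (ratio 101, counting interval 34 to 491, edgeR adjusted p = 0.00756). The partner total with cadmium was 4 without cadmium 1 and 3 without control 2, and with both 4 without control 2, 7 without control 3, 7 without combined 1 and 7 without combined 2.

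Markers of some other cell types moved beside these changes, while the neuron and digestive gland sums overlapped the controls in every exposure. The neuron sum in liver follows mainly neuroendocrine convertase, at 777 to 951 CPM in control livers on the scale of all 24 samples. On that scale synaptotagmin held 154 to 176 CPM and synapsin 0.255 to 0.35 CPM, so the sum says little about most neuron names. With cadmium, polystyrene and both, 0, 0 and 0 of 24 tested neuron clusters were higher and 1, 0 and 0 lower. Of 71 digestive gland clusters 5, 1 and 6 were higher and 1, 0 and 3 lower. The muscle clusters summed in liver to 1251, 1164 and 1265 CPM in controls, 1529.9, 1422 and 1688 with cadmium, 1470.2, 1411 and 1473 with polystyrene and 1684, 1658 and 1595 with both, so every exposed sample was above every control. Of 46 tested in liver 4, 4 and 11 were higher, in that order of exposure, and none lower. Of all tested clusters 1.66%, 1.58% and 2.86% were higher. Cilia clusters summed to 644, 1441 and 941 CPM in controls and 411, 464 and 458 with both, where 25 of 101 were lower and 2 higher. Of all tested clusters 3.39% were lower and 2.86% higher with both. Hemocyanin and hemocytin clusters of blood and pore cells summed to 6645 to 9312 CPM in controls, 5686 to 8793 with cadmium, 5918 to 6291 with polystyrene and 4062 to 5924 with both. The part of these cell types in the matrix changes was not tested.

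The combined exposure was set against each single pollutant in liver, since the series asks how the 2 act together. Against cadmium 7 of 151 members were higher and 4 lower, where 2.5% of all tested clusters were called, 1.12% higher and 1.38% lower. Against polystyrene 1 was higher and 2 lower, where 1.32% of all tested clusters were called, 0.491% higher and 0.829% lower. Both comparisons share the combined samples. Collagen alpha-4(VI) (Cluster-2499.80169) was higher with both than with cadmium alone (log2 fold change 0.70 ± 0.11, edgeR adjusted p = 0.00828), and so was the adaptor cluster Cluster-2499.87991 (log2 fold change 0.68 ± 0.11, edgeR adjusted p = 0.00835). Against polystyrene the differences of these 2 did not pass (adjusted p = 0.316 and 0.193). Collagen alpha-1(II) (Cluster-2499.83514) was lower with both than with cadmium (log2 fold change -0.73 ± 0.13, edgeR adjusted p = 0.0118). Its combined samples, at 55.1, 41.4 and 54.4 CPM, lay below all cadmium samples, at 84.3, 81.7 and 84.1 CPM. The pair of hemicentins parted: Hemicentin-1 (Cluster-2499.108007) was higher with both than with cadmium (log2 fold change 4.23 ± 0.54, edgeR adjusted p = 0.0022) and than with polystyrene (log2 fold change 2.37 ± 0.47, edgeR adjusted p = 0.024, lost at an adjusted p of up to 0.125 in 4 of 12 single omissions), and the hemicentin-2-like cluster (Cluster-2499.122000), without a count in the combined livers, was at least 77.2-fold lower than with cadmium (adjusted p = 0.00406). Collagen alpha-5(IV) (Cluster-2499.91637) was lower with both than with polystyrene (log2 fold change -0.60 ± 0.14, edgeR adjusted p = 0.0476, lost at an adjusted p of up to 0.222 in 9 of 12 single omissions, of 0.052 with only the compared groups fitted, of 0.0542 with the replicate block and of 0.0554 with the stricter filter). The total against cadmium was 6 without cadmium 1, 7 without cadmium 2, 5 without combined 3, 6 without polystyrene 2 and 7 without polystyrene 3, and against polystyrene 0 without combined 3, 6 without polystyrene 1, 0 without polystyrene 2 and 0 without polystyrene 3. Where edgeR called 0 members, 37 to 41 had an unadjusted p under 0.05. That is 23.3% to 25.6% of the members, where 10.6% to 11.6% of all tested clusters had one.

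In brain most called members were hemicentins, single clusters of which fell to or rose from near 0 in whole groups, while few collagens and laminins were called. Of 181 tested members 7 were higher and 9 lower with cadmium, 15 higher and 11 lower with polystyrene, and 7 higher and 9 lower with both. That is 8.84%, 14.4% and 8.84% of the members, where 4.34%, 7.08% and 3.92% of all tested clusters were called. By direction these were 2.6%, 4.66% and 2.13% higher and 1.75%, 2.42% and 1.79% lower. Median log2 fold changes were 0.15, 0.07 and 0.03, against -0.01, 0.00 and -0.01 for all clusters. Of the calls, hemicentins gave 5 higher and 9 lower with cadmium, 10 and 6 with polystyrene and 2 and 8 with both, of 58 tested. The same 3 controls serve all 3 comparisons. With cadmium the counts were 4 higher and 5 lower without cadmium 4 and 4 higher and 6 lower without cadmium 5. With polystyrene they were 7 higher and 5 lower without control 4, 11 higher and 5 lower without polystyrene 4, 6 higher and 5 lower without polystyrene 5 and 6 higher and 3 lower without polystyrene 6. With both they were 2 higher and 8 lower without control 4 and 3 higher and 6 lower without combined 5. Brain control 5 had the lowest member sum of the controls. Without it the counts were 3 higher and 9 lower, 7 higher and 14 lower, 3 higher and 9 lower, in the same order.

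**Figure D3:**
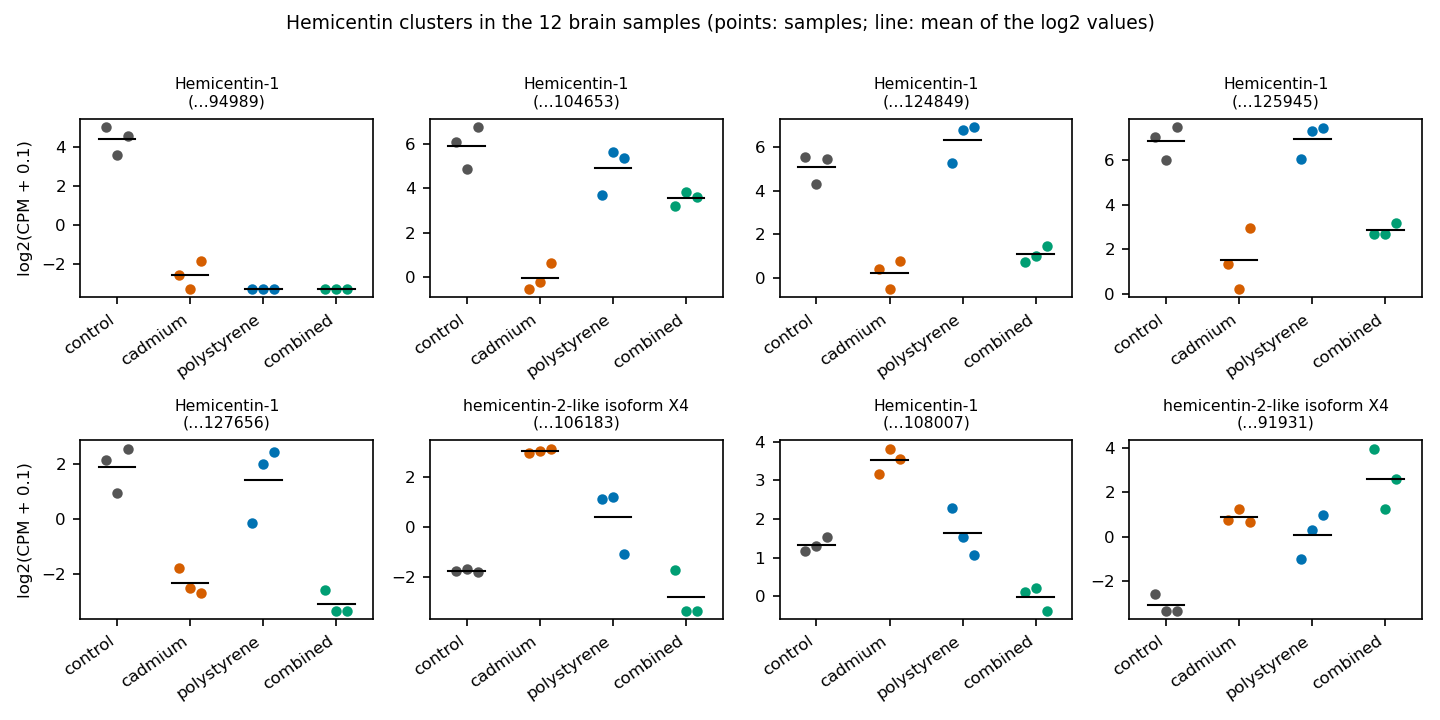
Levels of 8 hemicentin clusters in the 12 brain samples, as log2(CPM + 0.1), with a point for each sample and a line for the mean of the log2 values of each group. Hemicentin-1 (Cluster-2499.94989) drops from 32.3, 12 and 23.2 CPM in controls to 0.0643, 0 and 0.173 CPM with cadmium and 0 with polystyrene and with both, and Cluster-2499.124849 and Cluster-2499.125945 drop with cadmium and with both and overlap the controls with polystyrene alone.

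Hemicentin-1 (Cluster-2499.94989) held 32.3, 12 and 23.2 CPM in control brains and 0.0643, 0 and 0.173 CPM with cadmium. Polystyrene samples held 0, 0 and 0 CPM and samples with both 0, 0 and 0 CPM. No exposed sample reached the lowest control. It fell with cadmium (log2 fold change -7.91 ± 0.66, edgeR adjusted p = 0.000294), was at least 358-fold lower with polystyrene (edgeR adjusted p = 0.000207) and at least 342-fold lower with both (0.000289). It was called in all 3 exposures whichever single library was left out. A second Hemicentin-1 cluster (Cluster-2499.124849) held 46.5, 19.7 and 44.1 CPM in control brains and 1.22, 0.597 and 1.61 CPM with cadmium. Polystyrene samples held 38.8, 111 and 121 CPM and samples with both 1.54, 1.94 and 2.69 CPM. It fell with cadmium (log2 fold change -4.97 ± 0.53, edgeR adjusted p = 0.000495) and with both (log2 fold change -4.16 ± 0.51, edgeR adjusted p = 0.00137), and with polystyrene its samples overlapped the controls and it did not pass (log2 fold change 1.29 ± 0.43, edgeR adjusted p = 0.0967). Hemicentin-1 (Cluster-2499.125945) held 135, 64.7 and 181 CPM in control brains and 2.44, 1.04 and 7.55 CPM with cadmium. Polystyrene samples held 66.8, 159 and 178 CPM and samples with both 6.38, 6.37 and 9 CPM. Its cadmium and combined samples lay below all controls (edgeR adjusted p = 0.00359 and 0.00904). Hemicentin-1 (Cluster-2499.127656) held 4.27, 1.85 and 5.79 CPM in control brains and 0.193, 0.0746 and 0.0577 CPM with cadmium. Polystyrene samples held 0.801, 3.9 and 5.24 CPM and samples with both 0.0701, 0 and 0 CPM. The edgeR adjusted p was 0.00317 for cadmium and 0.00198 for both. In both exposures all samples lay below all controls, while polystyrene samples overlapped them. Hemicentin-1 (Cluster-2499.104653) held 69.3, 29.6 and 109 CPM in control brains and 0.578, 0.746 and 1.44 CPM with cadmium. Polystyrene samples held 12.9, 50.6 and 41.2 CPM and samples with both 9.25, 14.1 and 12 CPM. It fell with cadmium (log2 fold change -6.20 ± 0.68, edgeR adjusted p = 0.000709) and with both (log2 fold change -2.56 ± 0.55, edgeR adjusted p = 0.0256, lost at an adjusted p of up to 0.0928 in 5 of 12 single omissions and of 0.109 with no filter), and with polystyrene it did not pass (adjusted p = 0.293).

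Other hemicentins rose. The cluster named hemicentin-2-like isoform X4 (Cluster-2499.106183) held 0.2, 0.213 and 0.195 CPM in control brains and 7.77, 8.06 and 8.71 CPM with cadmium. Polystyrene samples held 2.07, 2.22 and 0.383 CPM and samples with both 0.21, 0 and 0 CPM. Cadmium samples were above all others, and polystyrene samples above the controls. It rose with cadmium (log2 fold change 5.28 ± 0.71, edgeR adjusted p = 0.000902) and with polystyrene (log2 fold change 2.89 ± 0.71, edgeR adjusted p = 0.0262, lost at an adjusted p of up to 0.0952 in 5 of 12 single omissions), and with both it did not pass (adjusted p = 0.521). Hemicentin-1 (Cluster-2499.108007) held 2.13, 2.35 and 2.8 CPM in control brains and 8.8, 14 and 11.7 CPM with cadmium. Polystyrene samples held 4.81, 2.82 and 1.98 CPM and samples with both 0.981, 1.06 and 0.672 CPM. It rose with cadmium (log2 fold change 2.24 ± 0.35, edgeR adjusted p = 0.00236). With both its samples lay below the controls at an edgeR adjusted p of 0.0503. Another cluster (Cluster-2499.91931, hemicentin-2-like isoform X4) held 0.0667, 0 and 0 CPM in control brains and 1.61, 2.31 and 1.5 CPM with cadmium. Polystyrene samples held 0.401, 1.14 and 1.85 CPM and samples with both 15.6, 2.31 and 5.98 CPM. With few counts in the controls it gives a ratio of 78.7 (counting interval 13.7 to 3146) for cadmium (edgeR adjusted p = 0.00882, lost at an adjusted p of up to 0.0536 without control 5), a ratio of 50.7 (counting interval 8.72 to 2039.9) for polystyrene (0.016, lost at an adjusted p of up to 0.0715 in 3 of 12 single omissions) and a ratio of 343 (counting interval 61.2 to 13597) for both (0.00122). With polystyrene Hemicentin-1 (Cluster-2499.62507) rose from 0.294 ± 0.0534 to 2.47 ± 0.885 CPM (log2 fold change 3.04 ± 0.57, edgeR adjusted p = 0.00637), while the cluster named hemicentin-1-like isoform X1 (Cluster-2499.102113) fell from 7.37 ± 4.24 to 0.235 ± 0.168 CPM (log2 fold change -4.93 ± 0.88, edgeR adjusted p = 0.00595). With both it was at 0.201 ± 0.349 CPM (adjusted p = 0.00707).

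The most abundant hemicentin of the brain (Cluster-2499.121754) held 1582, 1313 and 2622 CPM in control brains and 2792, 5278 and 1716 CPM with cadmium. Polystyrene samples held 627, 5947 and 2794 CPM and samples with both 1056, 988 and 3045 CPM. Its groups overlapped and it passed in no exposure (edgeR adjusted p at least 0.608). Summed over all 83 clusters, hemicentins held 2299, 1766 and 3465 CPM in controls, 3224, 5771 and 2211 with cadmium, 1226, 6708 and 3508 with polystyrene and 1823, 1540.0 and 3564 with both. These sums overlapped in all groups.

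Among the collagens of the brain, Collagen alpha-1(XI) (Cluster-2499.71675), which starts fibrils in vertebrate cartilage, held 135, 131 and 124 CPM in control brains and 69.4, 100.3 and 85.8 CPM with cadmium. Polystyrene samples held 89.3, 82.9 and 58.2 CPM and samples with both 123, 126 and 110.4 CPM. All cadmium and polystyrene samples were below all controls. It was called lower with polystyrene (log2 fold change -0.76 ± 0.19, edgeR adjusted p = 0.0288, lost at an adjusted p of up to 0.129 in 4 of 12 single omissions and of 0.0954 with only the compared groups fitted), and with cadmium and with both it did not pass (adjusted p = 0.0917 and 0.818). Collagen alpha-1(XXI) (Cluster-2499.140007) held 1.87, 0.427 and 2.86 CPM in control brains and 5.85, 4.25 and 3.86 CPM with cadmium. Polystyrene samples held 16.3, 9.65 and 8.43 CPM and samples with both 9.11, 4.87 and 6.38 CPM. Here every exposed sample lay above every control. It rose with polystyrene (log2 fold change 2.72 ± 0.49, edgeR adjusted p = 0.00564) and with both (log2 fold change 1.97 ± 0.49, edgeR adjusted p = 0.0364, lost at an adjusted p of up to 0.097 in 4 of 12 single omissions and of 0.162 with only the compared groups fitted). The 2 collagen II clusters, abundant fibril formers in brain at 796 ± 400.0 CPM (Cluster-2499.90947) and 646 ± 292 CPM (Cluster-2499.83514) in controls, passed in no exposure (adjusted p at least 0.269). Collagen alpha-1(XIV) (Cluster-2499.15103) held 1, 0.783 and 5.72 CPM in control brains and 6.36, 2.24 and 5.19 CPM with cadmium. Polystyrene samples held 6.41, 38.4 and 78.6 CPM and samples with both 1.96, 1.5 and 3.56 CPM. Its polystyrene call (edgeR adjusted p = 0.0433) was lost at an adjusted p of up to 0.141 in 10 of 12 single omissions, of 0.129 with no filter and of 0.0869 with only the compared groups fitted. Cartilage matrix protein (Cluster-2499.87991) held 435, 319.6 and 405 CPM in control brains and 249, 351 and 256 CPM with cadmium. Polystyrene samples held 256, 234 and 219 CPM and samples with both 422, 336 and 377 CPM. It was lower with polystyrene (log2 fold change -0.71 ± 0.19, edgeR adjusted p = 0.0374, lost at an adjusted p of up to 0.137 in 9 of 12 single omissions, of 0.109 with only the compared groups fitted and of 0.0575 with the replicate block).

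Of the basement membrane members, Peroxidasin homolog pxn-1 (Cluster-2499.119837), named for a peroxidase of Caenorhabditis elegans, held 20.1, 4.77 and 35.2 CPM in control brains and 28.1, 34.5 and 11.1 CPM with cadmium. Polystyrene samples held 88.2, 62.2 and 63.6 CPM and samples with both 194, 81.8 and 137 CPM. The polystyrene and combined samples lay above all controls. It was called with both (log2 fold change 2.78 ± 0.66, edgeR adjusted p = 0.0442), a call lost at an adjusted p of up to 0.138 in 10 of 12 single omissions, of 0.142 with no filter, of 0.0566 with only the compared groups fitted and of 0.0744 with the replicate block. Peroxidasin (Cluster-2499.93408) held 119, 115 and 121 CPM in control brains and 106, 105 and 89.6 CPM with cadmium. Polystyrene samples held 95.4, 94.3 and 79.1 CPM and samples with both 153, 177 and 134 CPM. It did not pass against the controls (adjusted p at least 0.163). Laminin subunit alpha (Cluster-2499.99943) held 49.3, 44.3 and 56.8 CPM in control brains and 37.3, 39.3 and 38.8 CPM with cadmium. Polystyrene samples held 36.5, 34.8 and 29.8 CPM and samples with both 47.7, 50.6 and 43.6 CPM. The cadmium and polystyrene samples lay below all controls. It was lower with polystyrene (log2 fold change -0.57 ± 0.16, edgeR adjusted p = 0.0434), a call lost at an adjusted p of up to 0.185 in 11 of 12 single omissions, of 0.196 with no filter, of 0.157 with only the compared groups fitted and of 0.0674 with the replicate block. The clusters that follow belong to other roles than the basement membrane. Fibulin-5 (Cluster-2499.126543), which helps assemble elastic fibres in vertebrates, held 1.6, 1.64 and 2.8 CPM in control brains and 5.85, 6.79 and 4.33 CPM with cadmium. Polystyrene samples held 4.01, 7.13 and 6.2 CPM and samples with both 3.71, 3.62 and 4.77 CPM. All exposed samples lay above all controls. It rose with cadmium (log2 fold change 1.48 ± 0.33, edgeR adjusted p = 0.0216, lost at an adjusted p of up to 0.079 in 4 of 12 single omissions and of 0.0594 with only the compared groups fitted) and with polystyrene (log2 fold change 1.52 ± 0.33, edgeR adjusted p = 0.0152, lost at an adjusted p of up to 0.0706 in 3 of 12 single omissions and of 0.0513 with only the compared groups fitted). SPARC (Cluster-2499.35677), a collagen-binding glycoprotein and the leading SPARC cluster, held 46.1, 9.89 and 39.5 CPM in control brains and 26.9, 15.4 and 16.8 CPM with cadmium. Polystyrene samples held 9.82, 5.63 and 11.2 CPM and samples with both 17, 9.49 and 5.24 CPM. It passed in no exposure (adjusted p at least 0.0722), nor did the leading metalloproteinase inhibitor (Cluster-2499.86607, 159 ± 64.5 CPM in controls, adjusted p at least 0.794).

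Of 115 tested partners 5 were higher and 0 lower with cadmium, 7 and 0 with polystyrene and 4 and 1 with both. The called shares of 4.35%, 6.09% and 4.35% stood beside 4.34%, 7.08% and 3.92% of all tested clusters. Integrin alpha-PS1 (Cluster-2499.93355), a laminin receptor subunit in Drosophila, rose with polystyrene from 9.24 ± 1.76 to 27.2 ± 6.13 CPM (log2 fold change 1.55 ± 0.26, edgeR adjusted p = 0.00325). A cluster named Bone morphogenetic protein 1 (Cluster-2499.25901), the protease that trims procollagen, rose with polystyrene from 0.181 ± 0.0448 to 94.8 ± 119.6 CPM (log2 fold change 8.98 ± 1.34, edgeR adjusted p = 0.00601), unevenly, with 8.95, 44.1 and 231 CPM in the exposed samples. Transforming growth factor-beta-induced protein ig-h3 (Cluster-2499.90601), an adhesion protein, was scarce and rose with both from 0.0439 ± 0.038 to 0.98 ± 0.246 CPM (ratio 21.6, counting interval 5.65 to 184, edgeR adjusted p = 0.0169). In each of these 3 every exposed sample was above every control. The partner total with cadmium was 1 without cadmium 4, 1 without cadmium 5, 3 without cadmium 6, 1 without control 4, 2 without control 5, 2 without control 6 and 9 without combined 4, with polystyrene 3 without polystyrene 6 and with both 2 without control 4, 3 without control 6, 3 without combined 4, 3 without combined 5 and 2 without combined 6. Muscle clusters summed in brain to 17476, 12297 and 26172 CPM in controls, 18143, 26341 and 17185 with cadmium, 18726, 23132 and 13161 with polystyrene and 52131, 35175 and 29086 with both. The combined samples lay above the controls, and 3 of 51 muscle clusters were called higher there and 0 lower. With polystyrene 6 were higher and 1 lower, and with cadmium 0 were higher and 0 lower. Of all tested clusters 2.6%, 4.66% and 2.13% were higher with cadmium, polystyrene and both. The part of muscle clusters in the brain results was not tested.

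Set against the single pollutants in brain, the combined exposure had 6 members higher and 5 lower than cadmium, where 2.79% of all tested clusters were called, 1.25% higher and 1.53% lower. It had 7 higher and 6 lower than polystyrene, where 3.51% of all tested clusters were called, 1.24% higher and 2.26% lower. Hemicentin-1 (Cluster-2499.108007) was lower with both than with cadmium (log2 fold change -3.66 ± 0.38, edgeR adjusted p = 0.000282), its samples at 0.981, 1.06 and 0.672 against 8.8, 14 and 11.7 CPM. The hemicentin-2-like cluster (Cluster-2499.106183) was also lower than with cadmium (adjusted p = 0.000707), its cadmium level exceeding the combined one at a ratio of 124 (counting interval 42 to 602). Neither pair of groups overlapped. Against polystyrene, Hemicentin-1 (Cluster-2499.124849) was lower with both (log2 fold change -5.45 ± 0.53, edgeR adjusted p = 0.000429), and so were Cluster-2499.125945 (log2 fold change -4.21 ± 0.68, edgeR adjusted p = 0.0102, lost at an adjusted p of up to 0.0574 without combined 4 or combined 5) and Cluster-2499.127656 (adjusted p = 0.00284). Peroxidasin (Cluster-2499.93408) was higher with both than with polystyrene (log2 fold change 0.79 ± 0.16, edgeR adjusted p = 0.0175, lost at an adjusted p of up to 0.0968 in 4 of 12 single omissions), as was the cluster named hemicentin-1-like isoform X2 (Cluster-2499.101239), with 217, 163 and 126 against 78, 80.1 and 53.1 CPM (log2 fold change 1.26 ± 0.25, edgeR adjusted p = 0.0133, lost at an adjusted p of up to 0.0694 without combined 4 or polystyrene 6). The total against cadmium was 4 without cadmium 4, 5 without cadmium 5, 5 without cadmium 6 and 19 without control 5, and against polystyrene 21 without control 5, 8 without combined 4, 7 without combined 5, 7 without polystyrene 5 and 5 without polystyrene 6.

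**Figure D4:**
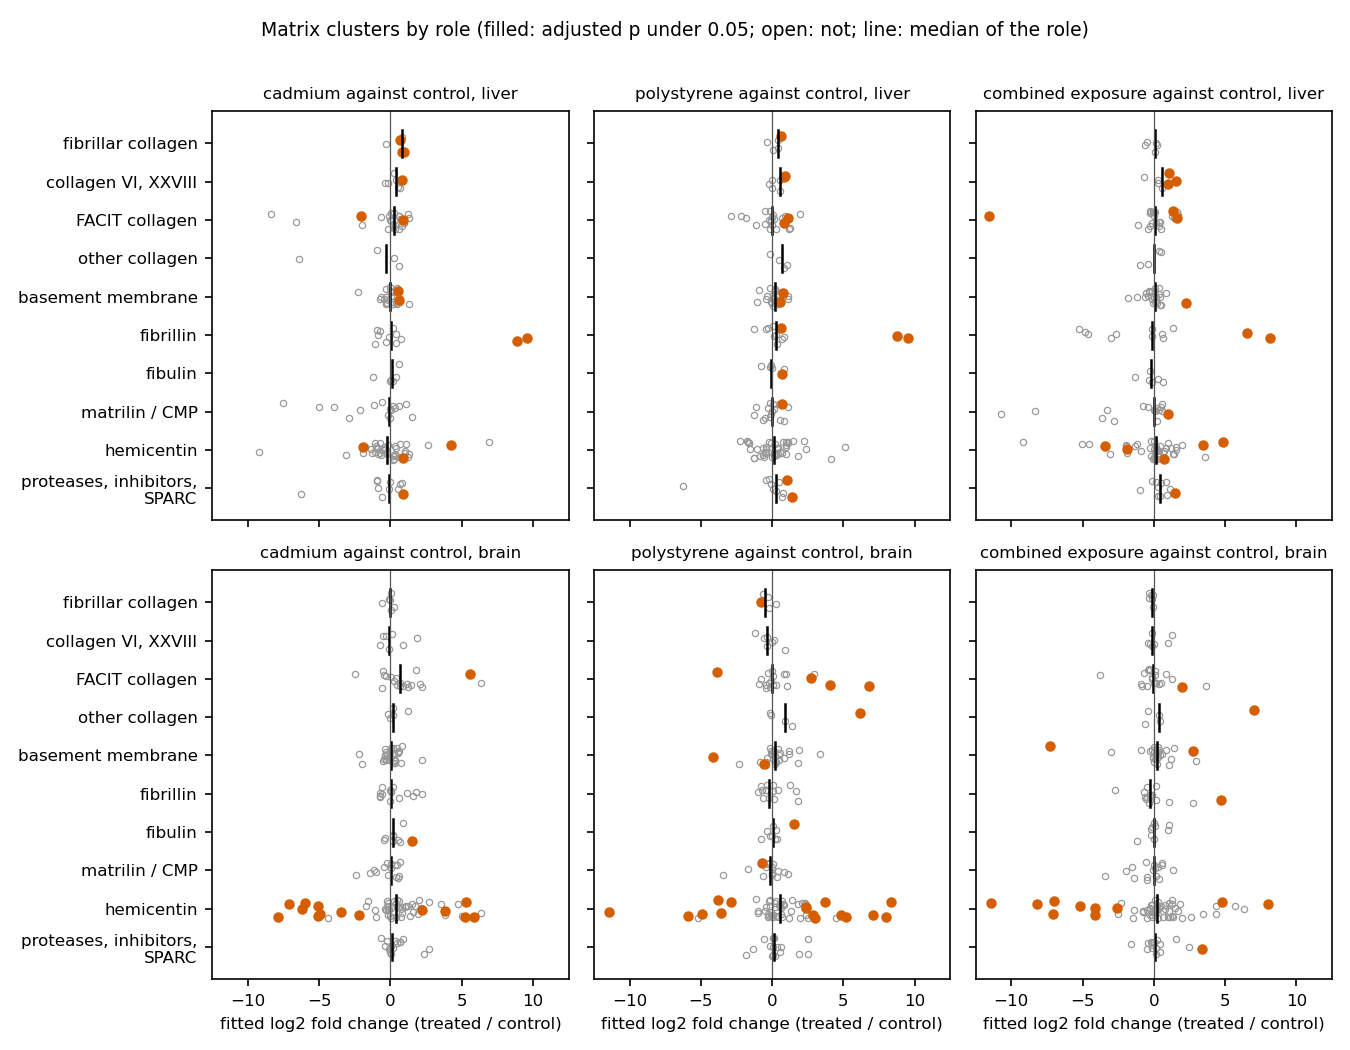
Log2 fold change of each tested member against the controls of its tissue, by role, for the 3 exposures in liver and in brain, with filled points for members called at an adjusted p under 0.05 and a line at the median of each role (CMP is cartilage matrix protein). Points of clusters with no count in a group depend on the prior count of the fit, and the filled points sit mostly above 0 in liver, and in brain they are mostly hemicentins on both sides of 0.

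Whether brain and liver differed in these changes was tested directly, as the change in brain minus the change in liver in the fit of all 24 samples. Of 206 tested members the cadmium change was higher in brain for 10 and lower for 5, where 2.23% of all tested clusters were called, 1.41% higher and 0.815% lower. The polystyrene change was higher in brain for 5 and lower for 11, where 2.84% of all tested clusters were called, 1.72% higher and 1.12% lower. The change with both was higher in brain for 3 and lower for 11, where 1.98% of all tested clusters were called, 1.2% higher and 0.78% lower. With polystyrene, Cartilage matrix protein (Cluster-2499.87991) went from 75.2 ± 7.3 to 120.4 ± 2.62 CPM in liver and from 304 ± 49.4 to 188 ± 16.2 CPM in brain (difference of log2 changes, brain minus liver, -1.37 ± 0.23, edgeR adjusted p = 0.00153). Laminin subunit alpha (Cluster-2499.99943) went with polystyrene from 15.4 ± 0.128 to 22.9 ± 3.03 CPM in liver and from 39.4 ± 5.17 to 26.8 ± 3 CPM in brain (difference of log2 changes, brain minus liver, -1.13 ± 0.20, edgeR adjusted p = 0.00312). Both were higher in exposed liver and lower in exposed brain. In the combined exposure, the collagen alpha-5(VI) chain-like cluster (Cluster-2499.100192) went from 31.7 ± 4.85 to 93.6 ± 27 CPM in liver and from 54.4 ± 12 to 50.6 ± 14.8 CPM in brain (difference of log2 changes, brain minus liver, -1.67 ± 0.34, edgeR adjusted p = 0.00951). Collagen alpha-1(XII) (Cluster-2499.80168) went from 11 ± 0.343 to 28.2 ± 8.83 CPM in liver and from 62.1 ± 14.3 to 53.3 ± 3.55 CPM in brain (difference of log2 changes, brain minus liver, -1.58 ± 0.31, edgeR adjusted p = 0.00672). Hemicentin-1 (Cluster-2499.108007) went with both from 0.906 ± 0.757 to 10.4 ± 5.31 CPM in liver and from 1.9 ± 0.269 to 0.722 ± 0.161 CPM in brain (difference of log2 changes, brain minus liver, -4.89 ± 0.66, edgeR adjusted p = 0.000335). These 3 were higher in combined livers than in control livers and no higher, or lower, in the means of the combined brains. With cadmium, Hemicentin-1 (Cluster-2499.75213) went from 3.61 ± 1.33 to 0.926 ± 0.238 CPM in liver and from 4.85 ± 1.53 to 10.7 ± 0.747 CPM in brain (difference of log2 changes, brain minus liver, 3.09 ± 0.58, edgeR adjusted p = 0.00475). It was lower in cadmium livers than in control livers, and in brain the cadmium difference did not pass (adjusted p = 0.112). Single libraries moved these totals too. For cadmium, 15 members became 9 without liver cadmium 1. For polystyrene, 16 became 9 without brain cadmium 4, 10 without brain cadmium 6, 6 without brain control 4, 6 without brain polystyrene 5, 7 without brain polystyrene 6, 8 without liver cadmium 1, 8 without liver control 1, 5 without liver control 2, 8 without liver control 3, 9 without liver polystyrene 1, 5 without liver polystyrene 2 and 8 without liver polystyrene 3. For the combined exposure, 14 became 9 without brain cadmium 4, 8 without brain control 4, 9 without brain control 6, 6 without brain combined 5, 7 without brain combined 6, 7 without liver control 2, 7 without liver control 3, 6 without liver combined 2 and 6 without liver combined 3.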

How the data were processed

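Liver and brain RNA-seq libraries from 4 groups of snails, 3 samples each, were read from a single table of clusters. In it the authors deposited expected counts, estimated numbers of reads that need not be whole, beside the database names, domains and lengths of each cluster. The aligner, counter and assembler are not given in the sources used here. Samples summed to between 13712265 and 17145998 counts. The expected counts were rounded to whole numbers and tested with edgeR 4.0.16 (R 4.3.3) by the robust quasi-likelihood test, with TMM scaling, filterByExpr at a minimum count of 10 and Benjamini-Hochberg adjustment over all tested clusters, and a call is an adjusted p under 0.05. The 12 samples of a tissue shared a fit, and all 24 entered the comparisons of tissues. Only the edgeR test within a tissue was tried on simulated counts.

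Alternatives were DESeq2 1.42.0 size factors and Wald test, no filter, a filter of 1 CPM in 3 samples, fits of only the compared groups, the replicate number as a block, and each sample left out. Bounds use a floor of 3 counts over a group, and intervals on ratios cover counting error only. The members, the partner and marker lists and the tests were chosen with earlier results of these data known. Clusters were named by a rule: the called members at 1 CPM or more with the smallest adjusted p or largest fold change in each direction (5 CPM for the control tissues), the most abundant member of each family, and called partners with the smallest adjusted p. Those outside it were chosen after their values were seen.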

Additional observations from a re-analysis of the deposited data

Results flagged for a closer look

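Each cluster below changed in a different way in brain and in liver. They are a selection from the called members, so their split by family is not that of all calls. Called differences of other fibrillins, collagens and hemicentins and of a matrix metalloproteinase are left out. Of all tested clusters 2.23%, 2.84% and 1.98% were called with cadmium, polystyrene and both. The test was edgeR's quasi-likelihood test of the difference itself in the fit of all 24 samples, and the value is the log2 change in brain minus the log2 change in liver, with its standard error. Levels are means ± SD of 3 samples in CPM. No explanation of any of them was tested.

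Structural proteins gave 11 of the 22 differences listed here. With polystyrene, Cartilage matrix protein (Cluster-2499.87991), an adaptor between matrix proteins, had a difference of -1.37 ± 0.23, adjusted p = 0.00153, and with both of -1.02 ± 0.23, adjusted p = 0.0174, lost at an adjusted p of up to 0.0593 in 3 of 24 single omissions and of 0.0825 with only the compared groups fitted. Laminin subunit alpha (Cluster-2499.99943), of the basement membrane, went with cadmium from 15.4 ± 0.128 to 23.2 ± 2.25 CPM in liver and from 39.4 ± 5.17 to 30.5 ± 0.819 CPM in brain (-0.96 ± 0.20, adjusted p = 0.012), a call lost at an adjusted p of 0.0944 with no filter. With polystyrene the same laminin had a difference of -1.13 ± 0.20, adjusted p = 0.00312. Fibrillin-2 (Cluster-2499.83867), of microfibrils, went with polystyrene from 38.3 ± 8.95 to 59.2 ± 3.21 CPM in liver and from 74.8 ± 19.9 to 46.7 ± 4.49 CPM in brain (-1.31 ± 0.29, adjusted p = 0.0129). Collagen alpha-1(XXI) (Cluster-2499.140007), of the fibril-surface group, went with polystyrene from 1.38 ± 0.373 to 1.7 ± 0.325 CPM in liver and from 1.35 ± 0.967 to 9.13 ± 3.43 CPM in brain (2.45 ± 0.68, adjusted p = 0.0497), a call lost at an adjusted p of up to 0.138 in 22 of 24 single omissions and of 0.0905 with only the compared groups fitted. Collagen alpha-1(XI) (Cluster-2499.71675), a fibril former, went with cadmium from 4.28 ± 0.622 to 7.63 ± 3.06 CPM in liver and from 102 ± 4.33 to 67.5 ± 12.3 CPM in brain (-1.43 ± 0.34, adjusted p = 0.0251), a call lost at an adjusted p of up to 0.112 in 5 of 24 single omissions. Collagen alpha-1(XII) (Cluster-2499.54575), which coats fibrils, went with cadmium from 5.51 ± 2.37 to 1.33 ± 0.321 CPM in liver and from 0.709 ± 0.614 to 3.37 ± 0.694 CPM in brain (4.27 ± 0.85, adjusted p = 0.00729). In the combined exposure the difference of Collagen alpha-1(XII) (Cluster-2499.80168) was -1.58 ± 0.31, adjusted p = 0.00672, and that of collagen alpha-5(VI) chain-like isoform X2 (Cluster-2499.100192) was -1.67 ± 0.34, adjusted p = 0.00951. Another Cartilage matrix protein (Cluster-2499.82617) had 8.48, 30.7 and 3.56 CPM in control livers and no count with both, and went from 17.6 ± 17.6 to no count in liver and from 150.4 ± 76.9 to 192 ± 138 CPM in brain (11.46 ± 2.74, adjusted p = 0.0467), a call lost at an adjusted p of up to 0.113 in 20 of 24 single omissions, of 0.0566 with no filter and of 0.0573 with only the compared groups fitted.

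Hemicentins gave the other differences listed here. Hemicentin-1 (Cluster-2499.108007) had a difference of -4.89 ± 0.66, adjusted p = 0.000335 with both, and Hemicentin-1 (Cluster-2499.75213) of 3.09 ± 0.58, adjusted p = 0.00475 with cadmium. The cluster named hemicentin-2-like isoform X4 (Cluster-2499.106183) went with cadmium from 2.79 ± 1.47 to 1.07 ± 0.834 CPM in liver and from 0.159 ± 0.00612 to 6.48 ± 0.348 CPM in brain (6.67 ± 1.10, adjusted p = 0.00182). The cluster named hemicentin-1-like (Cluster-2499.62840) went with polystyrene from 1.85 ± 0.448 to 0.564 ± 0.182 CPM in liver and from 0.622 ± 0.599 to 3.38 ± 1.07 CPM in brain (4.12 ± 0.86, adjusted p = 0.0092). With both it went from 1.85 ± 0.448 to 0.475 ± 0.466 CPM in liver and from 0.622 ± 0.599 to 2.25 ± 0.62 CPM in brain (3.77 ± 0.88, adjusted p = 0.0243), a call lost at an adjusted p of up to 0.0678 in 5 of 24 single omissions and of 0.11 with only the compared groups fitted. The cluster named hemicentin-1-like isoform X3 (Cluster-2499.59701) went with polystyrene from 3.84 ± 0.444 to 2.54 ± 1.03 CPM in liver and from 1.02 ± 0.755 to 5.43 ± 0.3 CPM in brain (2.98 ± 0.79, adjusted p = 0.0395), a call lost at an adjusted p of up to 0.103 in 11 of 24 single omissions. The cluster named hemicentin-2-like isoform X4 (Cluster-2499.122000) went with cadmium from 0.327 ± 0.217 to 6.37 ± 4.07 CPM in liver and from 0.653 ± 0.348 to no count in brain (-10.62 ± 1.73, adjusted p = 0.00258). Hemicentin-2 (Cluster-2499.56963) went with cadmium from 1.5 ± 0.896 to 3.03 ± 2.2 CPM in liver and from 0.87 ± 0.505 to no count in brain (-7.79 ± 1.65, adjusted p = 0.0154). The cluster named hemicentin-1-like (Cluster-2499.45813) went with polystyrene from 0.0602 ± 0.0524 to 1.25 ± 0.743 CPM in liver and from 2.32 ± 1.72 to 0.0338 ± 0.0294 CPM in brain (-10.02 ± 1.95, adjusted p = 0.00615). The cluster named hemicentin-2-like isoform X4 (Cluster-2499.91931) went with cadmium from 1.75 ± 1.54 to 0.196 ± 0.0377 CPM in liver and from 0.0175 ± 0.0304 to 1.43 ± 0.355 CPM in brain (8.91 ± 1.61, adjusted p = 0.00446). With both it went from 1.75 ± 1.54 to 2.88 ± 2.13 CPM in liver and from 0.0175 ± 0.0304 to 6.36 ± 5.47 CPM in brain (7.24 ± 1.48, adjusted p = 0.0115), a call lost at an adjusted p of 0.0573 with only the compared groups fitted. The sizes given for Cluster-2499.82617, Cluster-2499.122000, Cluster-2499.56963, Cluster-2499.45813 and Cluster-2499.91931 depend on the prior count of the fit, since a group of each held at most 3 counts, and are no estimates of a fold.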

How the results depend on the processing

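The called members of all comparisons and the partners named by the rule made 349 single calls, and none of these changed direction in a setting that could test it. Other called partners were not followed one by one. Of the calls that a setting could test, 344 of 348 were kept by the DESeq2 Wald test, 346 of 349 with DESeq2 size factors, 329 of 349 with no filter on low counts, 313 of 318 with a filter of 1 CPM in 3 samples, 256 of 313 with only the compared groups fitted, and 160 of 204 with the replicate block. 192 of 349 were kept in every single omission. With DESeq2 size factors every count of members stayed within 1.5 times its value. The cause of the shifts below was not tested. Several groups held 3 counts or fewer of a hemicentin or fibrillin, so depth limits the sizes of those differences.

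By the DESeq2 Wald test the number of called members became 28 for cadmium liver (from 14), 32 for combined liver (from 16), 26 for cadmium brain (from 16), 32 for combined brain (from 16), 24 for both against cadmium in liver (from 11), 16 for both against polystyrene in liver (from 3), 23 for both against cadmium in brain (from 11), 25 for both against polystyrene in brain (from 13), 23 for the tissue difference in cadmium change (from 15), 25 for the tissue difference in polystyrene change (from 16) and 28 for the tissue difference in change with both (from 14). With no filter it became 32 for cadmium liver (from 14), 27 for polystyrene liver (from 14), 36 for combined liver (from 16), 36 for cadmium brain (from 16), 43 for polystyrene brain (from 26), 37 for combined brain (from 16), 37 for both against cadmium in liver (from 11), 26 for both against polystyrene in liver (from 3), 26 for both against cadmium in brain (from 11), 32 for both against polystyrene in brain (from 13), 24 for the tissue difference in cadmium change (from 15), 28 for the tissue difference in polystyrene change (from 16) and 30 for the tissue difference in change with both (from 14). With only the compared groups fitted it became 16 for polystyrene brain (from 26), 9 for combined brain (from 16), 7 for both against cadmium in liver (from 11) and 6 for the tissue difference in change with both (from 14), and with the stricter filter 6 for both against cadmium in brain (from 11). Called partners became 17 for cadmium liver (from 9), 18 for polystyrene liver (from 9), 21 for combined liver (from 12), 15 for cadmium brain (from 5), 15 for polystyrene brain (from 7) and 13 for combined brain (from 5) with no filter, 10 for cadmium brain (from 5), 12 for polystyrene brain (from 7) and 11 for combined brain (from 5) by the DESeq2 Wald test, 3 for cadmium brain (from 5) with only the compared groups fitted, and 3 for combined brain (from 5) with the stricter filter.

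Leaving out each library in turn gave numbers of called members of 4 to 20 for cadmium liver, 6 to 16 for polystyrene liver, 7 to 23 for combined liver, 9 to 21 for cadmium brain, 9 to 27 for polystyrene brain, 9 to 19 for combined brain, 5 to 14 for both against cadmium in liver, 0 to 6 for both against polystyrene in liver, 4 to 19 for both against cadmium in brain, 5 to 21 for both against polystyrene in brain, 129 to 144 for control brain against control liver, 9 to 18 for the tissue difference in cadmium change, 5 to 16 for the tissue difference in polystyrene change and 6 to 14 for the tissue difference in change with both. Called partners ranged from 3 to 11 for cadmium liver, 6 to 13 for polystyrene liver, 4 to 13 for combined liver, 1 to 9 for cadmium brain, 3 to 9 for polystyrene brain, 2 to 7 for combined brain and 88 to 100 for control brain against control liver.

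Samples with the same number in different groups of a tissue showed little joint deviation. The correlations of their deviations ran from -0.0976 to 0.109 over 18 pairs in liver and from -0.124 to 0.133 over 18 in brain. Their mean was -0.00278 in liver, against 0.00171 for pairs of unlike number, and 0.0149 in brain, against -0.00766. 4 of 12 liver and 6 of 12 brain samples correlated best with their own number. The numbers were therefore not taken as pairs. With the replicate block the number of called members became 6 for both against cadmium in brain (from 11), and the other counts stayed within 1.5 times. No paired analysis was possible because the tissues share no replicate numbers, for comparisons of brain with liver.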
